A study of Mus musculus with 12 samples.

Results

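Shared distal regions were stretches of open chromatin that appeared in both treatment groups and lay far from protein-coding genes. Overlapping entries were merged within each of the 2 deposited peak lists, and a merged vehicle region was kept when it was on an autosome, was under 1500 bp wide, overlapped an MS275 region by at least 1 bp and lay more than 50 kb from every protein-coding gene body of mm10. This left 10012 regions out of 177906 merged vehicle regions, or 5.65% of the 177318 on autosomes. They were 12.4% of the 80436 shared autosomal regions under the width limit. Presence in both lists, width and distance were therefore set by the choice, and they are given as descriptions only.

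The regions came from mouse lumbar dorsal root ganglia (L4-L6) after dorsal column axotomy, a cut of the ascending sensory tracts in the spinal cord, which every group received. Mice were C57BL/6, 6 to 8 weeks old. The treated groups received 12 mg/kg MS275, a drug also called entinostat that blocks class I histone deacetylases, and the control groups the vehicle of Tween80, PEG300 and DMSO, injected into the peritoneum at injury and again 2 h before the ganglia were taken at 24 h. Each treatment had 3 ATAC-seq libraries of 1 mouse each and 3 RNA-seq libraries of 2 mice each. No uninjured group was analysed here, so nothing in the values separates injury from the uninjured state. The ganglia were whole, so each value sums over sensory neurons, satellite glia, Schwann cells and other cells.

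In ATAC-seq the transposase Tn5 cuts and tags DNA that nucleosomes leave exposed, so that a peak marks accessible chromatin. Far from genes, accessible chromatin is known to include enhancers, which raise transcription of a gene through looping, sites bound by the insulator protein CTCF, and promoters of long non-coding RNAs. Genes that direct development and neuronal wiring are known for long flanking intervals rich in such elements. An enhancer can act past its nearest gene, so the flanking genes below are named by position only.

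A small group of the regions covered the start of an annotated RNA that is not protein-coding, and promoter sequence is shown for 6 of these. The promoter windows (300 bases, 250 before to 50 after the start, RefSeq, GRCm38.p6) of 81 such genes lay wholly inside a shared distal region. The windows below belong to 5 of the 7 strongest of these by the authors' fold enrichment, and to the next below them; each is written 5′ to 3′ on the strand of its gene, with GC boxes (GGGCGG) and CCAAT boxes (CCAAT), on either strand, in capitals.

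Gm26901 promoter window, chr1:7398047-7398346, minus strand: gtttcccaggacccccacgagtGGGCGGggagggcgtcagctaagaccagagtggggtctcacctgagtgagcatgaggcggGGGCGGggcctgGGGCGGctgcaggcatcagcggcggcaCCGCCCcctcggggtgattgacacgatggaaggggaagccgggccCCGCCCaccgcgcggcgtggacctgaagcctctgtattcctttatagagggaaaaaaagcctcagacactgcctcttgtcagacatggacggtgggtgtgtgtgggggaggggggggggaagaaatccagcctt

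D130051D11Rik promoter window, chr15:85634346-85634645, plus strand: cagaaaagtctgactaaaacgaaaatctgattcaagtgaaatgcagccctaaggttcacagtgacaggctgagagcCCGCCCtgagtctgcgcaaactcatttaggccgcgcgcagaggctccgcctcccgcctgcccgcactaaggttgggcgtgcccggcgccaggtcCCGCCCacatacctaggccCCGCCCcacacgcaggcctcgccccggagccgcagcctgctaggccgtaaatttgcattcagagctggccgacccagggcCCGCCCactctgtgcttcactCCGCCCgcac

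Dubr promoter window, chr16:50732724-50733023, minus strand: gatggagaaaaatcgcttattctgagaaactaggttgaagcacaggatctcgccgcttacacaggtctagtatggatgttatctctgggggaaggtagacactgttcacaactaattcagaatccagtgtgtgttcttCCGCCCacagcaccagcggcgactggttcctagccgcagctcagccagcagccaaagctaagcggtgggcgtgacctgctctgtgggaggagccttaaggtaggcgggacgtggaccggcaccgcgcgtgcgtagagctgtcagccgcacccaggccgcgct

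BC002059 promoter window, chr17:16951286-16951585, plus strand: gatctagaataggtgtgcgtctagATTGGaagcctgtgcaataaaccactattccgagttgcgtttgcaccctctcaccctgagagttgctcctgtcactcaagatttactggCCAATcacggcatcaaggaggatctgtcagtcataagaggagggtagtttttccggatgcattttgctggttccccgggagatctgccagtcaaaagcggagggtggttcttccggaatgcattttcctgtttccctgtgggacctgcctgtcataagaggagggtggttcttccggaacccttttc

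A630089N07Rik promoter window, chr16:98082390-98082689, minus strand: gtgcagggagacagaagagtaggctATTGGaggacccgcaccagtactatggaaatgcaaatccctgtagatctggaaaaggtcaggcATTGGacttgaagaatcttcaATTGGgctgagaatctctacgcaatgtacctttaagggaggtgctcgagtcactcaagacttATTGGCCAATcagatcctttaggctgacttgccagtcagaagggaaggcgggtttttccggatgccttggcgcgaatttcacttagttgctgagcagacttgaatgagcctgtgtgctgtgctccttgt

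Gm34507 promoter window, chr17:4908072-4908371, plus strand: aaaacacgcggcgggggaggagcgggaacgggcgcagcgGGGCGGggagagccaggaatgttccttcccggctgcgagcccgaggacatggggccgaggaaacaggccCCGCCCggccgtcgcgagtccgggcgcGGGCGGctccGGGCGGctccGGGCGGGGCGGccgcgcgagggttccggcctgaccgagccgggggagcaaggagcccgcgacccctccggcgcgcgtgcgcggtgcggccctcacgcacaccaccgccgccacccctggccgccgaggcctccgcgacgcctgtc

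Gm26901, a long non-coding RNA between Pcmtd1 and Sntg1, had 5 GC boxes and a GC content of 65.7%. D130051D11Rik, between Wnt7b and Ppara, also had 5 GC boxes, and Gm34507, between Nox3 and Arid1b, had 6 with 49 CpG dinucleotides and 79.3% GC. Dubr had 1 GC box. BC002059 and A630089N07Rik had no GC box and held 2 and 5 CCAAT boxes. Gm29998 and Gm33195, also among the strongest but not shown, had 2 and 0 GC boxes and 0 CCAAT boxes each. Over the 81 windows, 30.9% held a GC box, against 16.8% of 9533 windows of genes that are not protein-coding and 46.3% of 17492 windows of protein-coding genes. A CCAAT box stood in 34.6%, 35.9% and 39.0% of the same sets, and a TATA box (TATAAA) in 6.17%, 15.7% and 13.3%. The AP-1 motif TGANTCA, read on both strands, stood in 11.1% of the 81 windows against 9.49% and 7.08%. The median window of the 81 held 6 CpG, between the medians of all windows that are not protein-coding (4) and of protein-coding windows (13). A motif match describes letters only.

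Other regions covered microRNA genes. 11 hairpins, in 9 regions, lay inside shared distal regions. They included 3 of the miR-344 family on chromosome 7, in the interval between Gm51483 and the imprinted gene Ndn, and 5 of the large imprinted cluster on chromosome 12 between Rtl1 and Dio3, which is known for neuronal expression. Mature sequences from RefSeq are shown for both groups, with the seed (bases 2 to 8), the part that pairs with targets, in capitals.

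mmu-miR-344-5p: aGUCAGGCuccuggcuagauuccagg

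mmu-miR-344b-5p: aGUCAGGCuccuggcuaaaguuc

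mmu-miR-344i: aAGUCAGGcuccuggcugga

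mmu-miR-134-5p: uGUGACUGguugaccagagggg

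mmu-miR-668-3p: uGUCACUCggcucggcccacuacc

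mmu-miR-485-3p: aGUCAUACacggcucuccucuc

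mmu-miR-487b-5p: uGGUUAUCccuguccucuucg

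mmu-miR-410-3p: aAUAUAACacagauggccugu

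miR-344-5p and miR-344b-5p shared the seed GUCAGGC, and that of miR-344i was AGUCAGG. No pair among the other 5 mature sequences above shared a seed. The 3 hairpins Mir134, Mir668 and Mir485 lay in a single region, chr12:109733893-109735040, 1148 bp wide with an authors' fold enrichment of 1.72. Mir344-2 lay in chr7:61939978-61940502, with a fold of 2.72. The counts are of poly(A) RNA, so no mature microRNA level was read from them.

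Most shared distal regions were narrow and modest in signal. Widths ran from 150 to 1498 bp with a median of 437 bp (quartiles 310 and 617 bp). The MS275 regions they overlapped had a median of 449 bp. In all, 4711 were wider in the vehicle list, 5262 were narrower and 39 were equally wide. A single summit stood in 6322 of them, and 3690 held 2 or more. The authors' fold enrichment over the caller's background had a median of 1.85 and a 90th percentile of 2.60, and only 34 regions reached 5. By fold, the median region stood at the 69.7th percentile of its own list, which also holds unshared regions. The set holds shared regions only, and sharing rose with fold, as given below. Other shared regions had median folds of 1.83 inside gene bodies and 1.82 within 50 kb outside them. Their 90th percentiles were 3.41 and 2.54. A fold of 5 was reached by 4.48% of those inside gene bodies and 0.637% of those within 50 kb, against 0.340% of the set. The authors' −log10 q had a median of 3.90, and 2106 regions were under 2. The lowest was 0.494, and the caller's limit is not known.

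**Figure D1:**
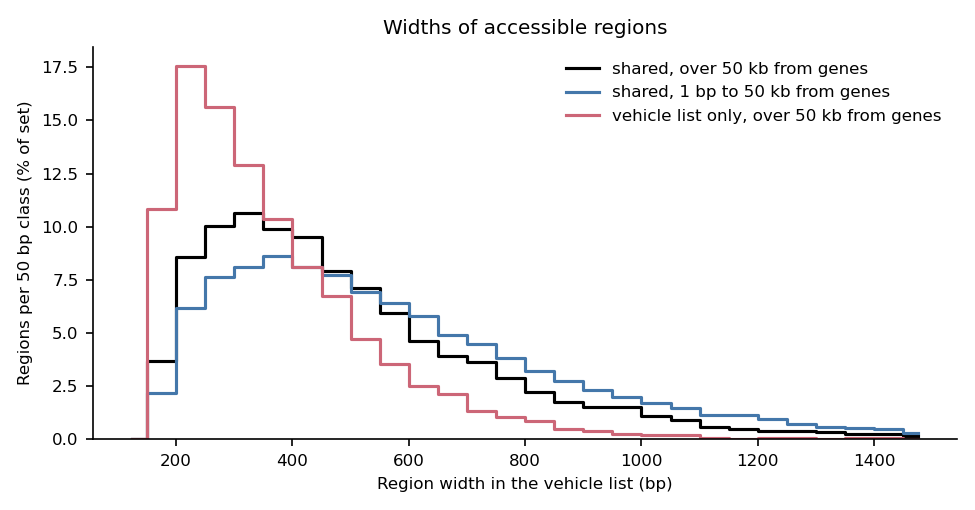
Width of regions in the vehicle list (x axis, bp) against the share of each set per 50 bp class (y axis, %), for shared regions over 50 kb from genes (black), shared regions 1 bp to 50 kb from genes (blue) and vehicle regions over 50 kb from genes that overlap no MS275 region (red). The medians are 437, 509 and 322 bp, and the black line lies between the other two over most widths.

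The strongest shared distal regions matched closely between the lists. The highest fold, 12.8, was at chr13:4771074-4771967, 161.9 kb from Akr1e1 and 1089.5 kb from Klf6, and the overlapping MS275 region had a fold of 12.9. The region over the Gm26901 start, chr1:7397581-7398650, had 11.8 and 12.8. The region chr5:84618275-84618580, between Gm42163 and Cenpc1, had 10.2 and 9.31, with the same start and end in both lists. In chr13:85126491-85127585, 61.8 kb from Ccnh, a cyclin of the kinase that activates cell-cycle kinases, the folds were 9.93 and 10.8. In chr5:60042647-60043169, which lay 1765.7 kb from its nearest gene, they were 9.57 and 9.62. In chr12:29290312-29291467, 236.1 kb from Myt1l, a neuronal transcription factor, they were 9.50 and 10.4. Of the 34 regions at a fold of 5 or more, 22 overlapped no annotated gene, 28 had an MS275 partner that also reached 5, and 5 of the 16 regions with identical limits in both lists were among them. Folds come from lists called separately, so a higher fold in one shows no change.

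The regions nearest the limits of the set were as follows. Just inside 50 kb stood chr12:106722100-106722382 (fold 1.80) and chr11:23205662-23205859 (1.54). Just outside, at 49996 and 49974 bp, stood chr4:148384211-148384498 (1.85) and chr3:101161715-101162301 (1.88). Just inside the width limit, at 1498 and 1494 bp, stood chr11:12857489-12858986 (2.25) and chr4:84120485-84121978 (1.96), and just outside, at 1503 and 1512 bp, chr14:67135093-67136595 (2.90) and chr5:111798892-111800403 (2.83). The width limit removed 95 shared regions beyond 50 kb.

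Overlap was close for most of the set. The MS275 region covered a median of 88.1% of the vehicle region, 7610 of the 10012 pairs covered each other by at least 50%, and the top summits of 6692 lay within 100 bp of each other, with a median of 45 bp.

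Among all vehicle regions beyond 50 kb and under the width limit, 42.7% overlapped an MS275 region (10012 of 23454). The Wilson 95% interval was 42.1% to 43.3%, which covers counting error only and takes regions as independent, although many lay close together. Over all autosomal vehicle regions under the limit, the distal ones included, the share was 46.3%, and the difference was not tested. The share followed strength: 23.7% of distal regions with a fold under 1.5, 35.7% from 1.5 to 2, 79.0% from 2 to 3, 99.5% from 3 to 5 and all 34 at 5 or more. It also followed width, from 27.3% under 300 bp to 84.1% at 1000 bp or more. Regions within 50 kb outside gene bodies gave 26.2%, 38.1%, 79.1%, 99.5% and 100% over the same fold classes, close to the distal values in each class. The 13442 distal vehicle regions with no MS275 overlap had a median width of 322 bp and a median fold of 1.64. Each list pools its 3 libraries, so the lists give no replicate spread and no test between treatments. The MS275 list held 27249 distal regions (16.9% of its autosomal regions) and the vehicle list 23555 (13.3%). Seen from the MS275 list, 37.2% of distal regions under the width limit were shared.

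**Figure D2:**
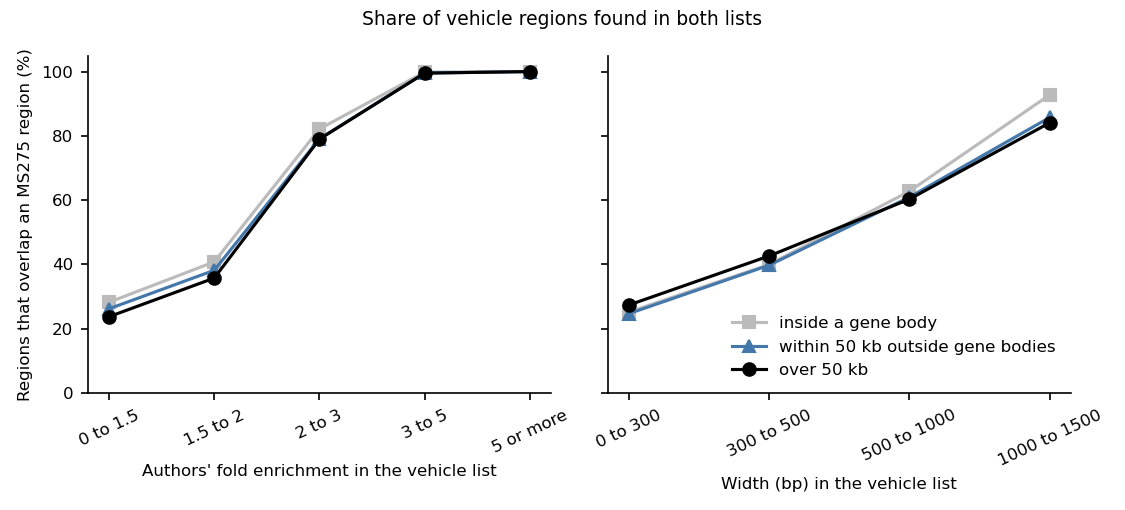
Share of vehicle regions that overlap an MS275 region (y axis, %), by the authors' fold enrichment (left) and by width in bp (right), for regions inside gene bodies (grey squares), within 50 kb outside them (blue triangles) and over 50 kb away (black circles). Beyond 50 kb the share rises from 23.7% to 100% with fold and from 27.3% to 84.1% with width, and the 3 lines lie close together.

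Shared regions thinned out with distance from genes. There were 54.7 per Mb inside protein-coding gene bodies, 35.2 from 1 bp to 10 kb outside them and 24.3 from 10 to 50 kb. Beyond the 50 kb limit the density fell further, from 18.5 per Mb at 50 to 100 kb (3369 regions) to 13.8 at 100 to 250 kb (3625), 9.73 at 250 to 500 kb (1879) and 5.66 beyond 500 kb (1139). Over all 835.6 Mb of distal sequence it was 11.9 per Mb, and the regions covered 0.590% of it. Median width fell over the same 4 distal classes, from 469 to 445, 416 and 382 bp, and the share with a single summit rose from 59.4% to 71.0%. Median fold stayed between 1.83 and 1.85. The share of regions in both lists stayed between 41.9% and 43.3%.

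**Figure D3:**
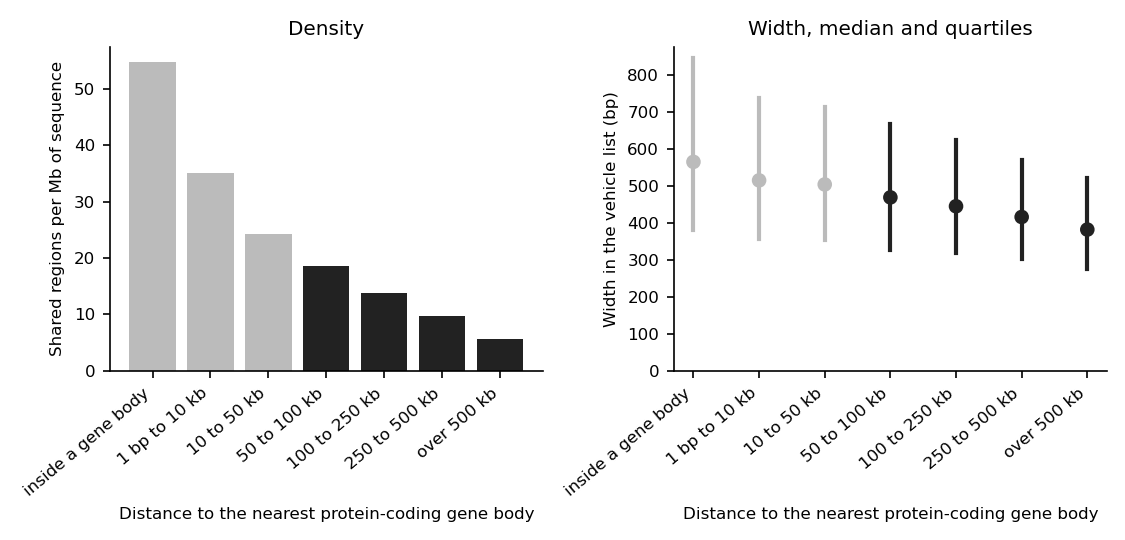
Shared regions per Mb of sequence (left) and width in bp with median and quartiles (right), by distance to the nearest protein-coding gene body; black marks the classes over 50 kb. Density falls from 54.7 to 5.66 per Mb and median width from 565 to 382 bp.

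The median shared distal region lay 146445 bp from its nearest protein-coding gene. The highest distance, 2237231 bp, was on chromosome 18, whose regions are not named singly here. Of the farthest regions on the other chromosomes, 3 are described. chr14:82159937-82160314, 378 bp wide with folds of 1.80 and 1.65, lay 2136.8 kb from Olfm4 and 2283.2 kb from Pcdh17, a protocadherin, a class of neuronal adhesion proteins. chr14:90488085-90488577, between the protocadherin genes Pcdh20 and Pcdh9, was 2016.7 kb from the nearer one and had folds of 2.28 and 3.30. chr1:102493763-102493962, between Cntnap5b and Cdh20, was 2003.2 kb away and lay in the RNA gene Gm53054, with folds of 1.80 and 1.79.

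The regions were unevenly spread over the 2472 intervals between neighbouring protein-coding genes that were long enough to hold distal sequence. Of these, 1700 held at least 1 region and 315 held 10 or more, and those 315 held 5125 regions (51.2% of the set). Short intervals were denser: 24.3 per Mb of distal sequence where it measured up to 100 kb and 6.09 where it was over 2000 kb. Among the 488 intervals with at least 500 kb of distal sequence, the median was 8.46 per Mb, the 10th and 90th percentiles 3.10 and 18.5, and the highest 66.1. In 9 of them there was none, including 832.4 kb between Csnk1g3 and Zfp608, where the vehicle list had 10 regions, and 702.5 kb between Grik2 and Ascc3, where it had 2. Between BC048507 and Mtrr, Gm12887 and Gm10573, and Gm38656 and Scgb2a2 it had 0. Densities count all sequence between genes, with no allowance for stretches where reads cannot be placed.

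The 10 intervals with the most regions held 412. Klf14 to Mkln1 on chromosome 6, which includes the non-coding RNA gene Lncpint, had 52 in 339.8 kb of distal sequence (153 per Mb), with a median width of 523 bp. Cdh26 to 4930591A17Rik on chromosome 2 had 47. Celf4 to Pik3c3 had 43, spread over 4411.1 kb. Nphp4 to Ajap1 and Tbc1d22a to Tafa5 had 41 each, Abhd5 to Topaz1 had 40, Rtl1 to Dio3 and Gm6569 to Adgrb1 had 38 each, and Tafa5 to Zdhhc25 and Camk1g to Plxna2 had 36 each. Tafa5, which encodes a secreted protein of the nervous system, bordered 2 of the 10 and flanked 77 regions in all. Rtl1 to Dio3 was the densest of the intervals with at least 500 kb of distal sequence, at 66.1 per Mb. The share of their vehicle regions that was shared ran from 34.6% (Cdh26 to 4930591A17Rik) to 57.1% (Abhd5 to Topaz1), on either side of the 42.7% over all distal regions.

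**Figure D4:**
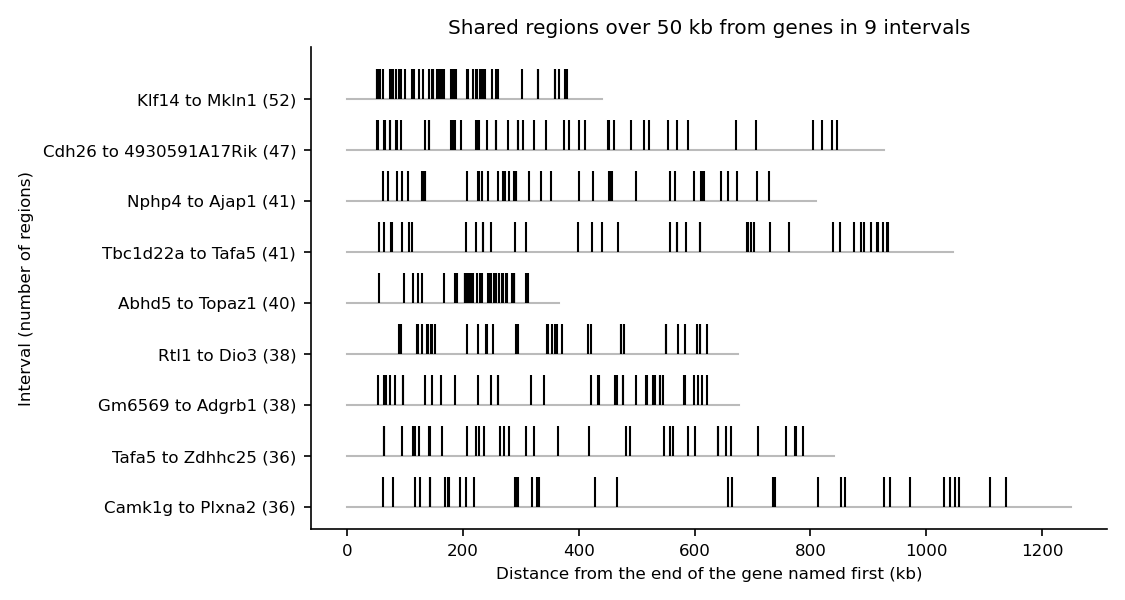
Positions of shared distal regions (ticks) in 9 of the 10 intervals with the most regions; the x axis is the distance in kb from the end of the gene named first, each grey line spans the interval, and the number of regions is in brackets. Ticks bunch in Klf14 to Mkln1 and Abhd5 to Topaz1 and are spread out in Camk1g to Plxna2.

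Regions often lay close together. The median distance to the nearest other shared distal region was 15208 bp, 2983 (29.8%) had another within 5 kb, and 1407 (14.1%) had none within 100 kb. Within 1 kb, 1469 (14.7%) had another. Vehicle regions were counted singly, also where neighbours overlapped the same MS275 region. There were 79 runs of at least 5 regions spaced at most 10 kb apart, holding 526 regions. The longest, between Abhd5 and Topaz1, had 29 regions in 86.6 kb, and the next, between the prolactin-family genes Prl2c3 and Prl2c2, had 25 in 81.6 kb. A run of 8 in 25 kb lay 53.8 kb from Mef2c, a transcription factor of neurons and muscle, and reached a fold of 6.78. A run of 9 beside Zfp36l2 reached 3.15. By chromosome, density ran from 6.62 per Mb on chromosome 19 (91 regions) to 17.4 on chromosome 9 (596). On the X chromosome, which the choice left out, the vehicle list held 569 merged regions, and 29 met the other limits.

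Distance was measured to protein-coding genes only, and 2214 regions (22.1%) overlapped an annotated gene of another kind, 2044 of them a long non-coding RNA gene. These RNA genes cover 11.8% of distal sequence and held 20.4% of the regions, against 18.7% of the distal vehicle regions with no MS275 overlap. Among shared regions within 50 kb outside gene bodies it was 18.5%. Promoter windows of genes that are not protein-coding cover 0.109% of distal sequence and overlapped 201 regions (2.01%). The share was 0.989% of the unshared distal regions and 2.64% of the shared ones within 50 kb. Shares of sequence count bases, whereas shares of regions count any overlap, which wider regions meet more easily. Those 201 were wider and stronger than the rest: median width was 620 bp, against 462 bp elsewhere in such genes and 428 bp outside them, and 3.48% reached a fold of 5 against 0.246% and 0.283%. Lncpint, which RefSeq places at chr6:31093563-31218474, held 27 regions, the most of any RNA gene. Pvt1, the RNA gene beside the oncogene Myc, held 18 with a highest fold of 4.16, and 2610035D17Rik, beside Sox9, and D130009I18Rik held 19 each.

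RNA counts bear on the non-coding genes only in part. Of 1314 genes that are not protein-coding and hold a shared distal region, 65 were tested. The rest had too few counts or matched no row of the counts by symbol. With MS275, 2 were higher and 0 were lower (0 lower by DESeq2 or voom too, and 2 lower at an unadjusted p under 0.05; edgeR quasi-likelihood, Benjamini-Hochberg adjusted p under 0.05), against 29 higher and 8 lower of 1032 tested autosomal genes of these kinds; over all genes tested, 5.10% were higher and 5.89% lower. AI427809 (Mexis in RefSeq), between Abca1 and Slc44a1, rose from 1.18, 1.38 and 1.26 CPM (counts scaled to library size) in the vehicle libraries to 2.72, 1.86 and 2.75 with MS275 (log2 difference 0.93, SE 0.20, edgeR adjusted p = 0.0202). 5930438M14, beside Pik3r1, rose from 0.157 ± 0.091 to 0.484 ± 0.038 CPM (SD, n = 3 each; edgeR adjusted p = 0.0411). Both lost the call without any 1 of the 3 vehicle libraries or without MS275 replicate 3, and 5930438M14 also without MS275 replicate 2. Pvt1 measured 16.1 ± 0.684 and 17.2 ± 0.791 CPM and did not pass, nor did D130009I18Rik at 23.0 ± 0.683 and 20.9 ± 1.33 CPM or 2610035D17Rik at 12.3 ± 0.533 and 12.4 ± 0.342 CPM. Of the 81 genes with a promoter window inside a region, 11 were tested and 0 passed by edgeR, DESeq2 or voom, with 1 at an unadjusted p under 0.05. Dubr (5330426P16Rik in the files) gave 6.76, 6.47 and 5.80 CPM with vehicle and 4.12, 5.31 and 5.97 with MS275, and the groups overlapped. The sources used here do not give the counter's strand setting, so reads of overlapping antisense genes may be mixed.

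The 6 RNA libraries held 34992533 to 60370523 reads assigned to genes. Sensory neuron markers summed to 10513 to 11108 CPM with vehicle and 10713 to 12064 with MS275; all 8 were detected and 1 was higher. The 5 skeletal muscle markers were all higher with MS275: they summed to 4.23 to 38.2 CPM with vehicle and 62.4 to 424 with MS275, the highest in replicate 1. Of the 3 endothelial markers, 2 were higher (50.5 to 56.4 against 61.3 to 76.9 CPM in sum), as was 1 of 2 adipocyte markers (1.57 to 2.09 against 2.26 to 4.43). Of 3 oligodendrocyte and astrocyte markers of the spinal cord, the 1 tested was higher (the 3 summed to 10.7 to 14.4 against 15.8 to 18.7 CPM), and Mog and Opalin had too few counts. Of 4 satellite glia markers, 1 was higher and 1 lower. The summed levels of Schwann cell, macrophage and erythroid markers overlapped between the groups. What part these cells had in the results on genes was not tested. In whole ganglia, fewer cells of a type and less RNA per cell cannot be told apart. The series' design text calls the triplicates biological.

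The question of whether genes beside shared distal regions differed with treatment was put to 2892 flanking protein-coding genes, 14.1% of the 20558 on autosomes. Of these, 2346 were tested. 118 were higher with MS275 (5.03%, against 5.10% of all genes and 5.59% of autosomal protein-coding genes that flank no region) and 172 were lower (7.33%, against 5.89% of all genes and 6.40% of those that flank no region). The median log2 difference was -0.01, and 0.00 over all genes. Calls by number of regions flanked were 27 higher and 43 lower of 449 genes with 1 region, 62 and 91 of 1351 with 2 to 9, 29 and 38 of 546 with 10 or more and, among these, 11 and 10 of 148 with 20 or more. Over these 4 classes the share of genes with a log2 difference above 0 went from 44.8% to 46.4%, 49.8% and 53.4% (50.5% of all genes), while the medians lay between -0.02 and 0.01; this order was not tested. The counts rested on every vehicle library. Without vehicle replicate 1 they fell to 34 higher and 34 lower (1.43% each, against 1.14% and 1.04% of all genes). Without vehicle replicate 2 they were 19 and 23 (0.804% and 0.973%, against 0.742% and 0.783%), and without vehicle replicate 3 they were 48 and 78 (2.03% and 3.30%, against 1.95% and 2.28%). Without MS275 replicate 3 they were 77 and 73, and there the share higher was also above that of all genes (3.26% against 2.61%; lower, 3.09% against 2.53%). Without MS275 replicate 1, the library with the most muscle RNA, they were 137 and 176 (5.81% and 7.47%, against 5.43% and 5.59%), and without MS275 replicate 2 they were 171 and 253 (7.25% and 10.7%, against 8.11% and 8.03%). The share lower was above that of all genes in each of these fits. The share higher was below that of all genes in the fit with every library and in the one without MS275 replicate 2. The fits have most of their libraries in common, so they are not repeated evidence. All genes include non-coding ones, and the fits without 1 library were not set against protein-coding genes alone. With every library, 6.55% of tested autosomal protein-coding genes were lower.

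Among flanking genes that rose, the smallest p belonged to Ly86, which encodes a partner of a Toll-like receptor relative on immune cells and flanked 12 regions, the nearest 58.7 kb away. It measured 121, 129 and 135 CPM with vehicle and 215, 244 and 223 with MS275 (log2 difference 0.83, SE 0.06, edgeR adjusted p = 0.000576). Every MS275 library was above every vehicle library. Ier5, an immediate early response gene flanking 5 regions, rose from 5.77, 5.46 and 5.27 to 12.7, 10.9 and 10.9 CPM (log2 difference 1.06, SE 0.09, adjusted p = 0.00117), again without overlap. Sox4, a transcription factor of neural progenitors and neurons, flanked 18 regions and rose from 27.0, 27.9 and 24.4 to 38.2, 37.7 and 39.6 CPM. Tle3, a Groucho-type co-repressor with 30 regions, rose from 40.4 ± 0.476 to 53.9 ± 3.38 CPM (SD, n = 3), and Zfp36l2, an RNA-binding protein of mRNA decay with 26, from 28.0 ± 0.229 to 38.0 ± 1.90 CPM. The other 7 of the 12 were Zfp608, Stac, Irf2bpl, Lbh, Lrrn1, Tpd52 and Snx7, with log2 differences of 0.30 (Tpd52) to 0.62 (Zfp608) and no overlap of groups in any.

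Among flanking genes that fell, Jag1, a ligand of Notch receptors that flanked 15 regions, measured 22.0, 23.8 and 20.0 CPM with vehicle and 13.3, 13.5 and 13.3 with MS275 (log2 difference -0.72, SE 0.08, edgeR adjusted p = 0.0019). Nr2f1, an orphan nuclear receptor of neural development with 30 regions, the nearest 208.7 kb away, fell from 23.5, 23.9 and 22.2 to 14.1, 15.9 and 15.7 CPM (-0.61, SE 0.07, adjusted p = 0.00244). In both, the groups did not overlap. Ep300, a histone acetyltransferase that flanked 1 region, fell from 31.2 ± 0.917 to 19.1 ± 1.81 CPM (SD, n = 3 each; log2 difference -0.70). Epc1 and Epc2, subunits of the NuA4 acetyltransferase complex, fell by 0.55 and 0.46 on the log2 scale, and Phf15 (Jade2 in RefSeq), of the HBO1 acetyltransferase complex, by 0.55; each flanked 1 region. That of Phf15, chr11:51915713-51916944, was 1232 bp wide with folds of 3.35 and 3.24. Adamts5, a protease of the extracellular matrix with 13 regions, fell from 52.7 ± 2.16 to 39.2 ± 0.915 CPM. Ahctf1, of the nuclear pore, Mier3, of a histone deacetylase complex, the transcription factors Sp4 and Runx2 and the kinase Stk35 completed the 12, with log2 differences of -0.46 (Stk35) to -0.87 (Mier3).

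**Figure D5:**
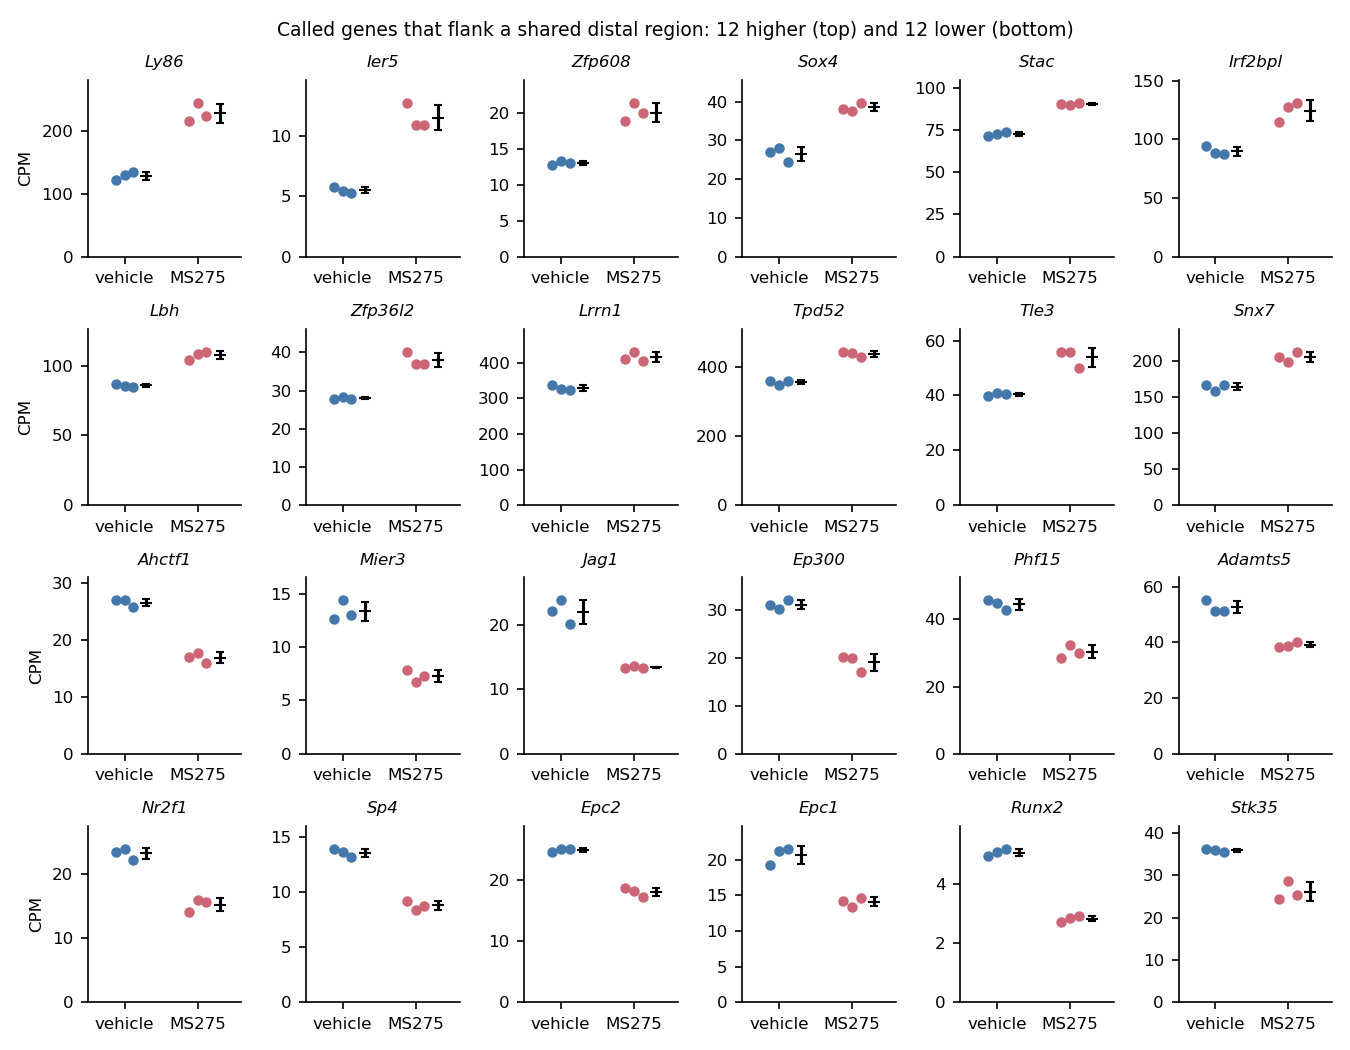
Counts scaled to library size (CPM, y axes from 0) in each of the 3 vehicle (blue) and 3 MS275 (red) libraries for the 24 named flanking genes, 12 higher (upper 2 rows) and 12 lower (lower 2 rows); the bar to the right of each group gives its mean and SD. In all 24 panels the groups do not overlap; the genes were chosen by their p-values.

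Genes at the 10 richest intervals numbered 19, of which 13 were tested and 1 passed (7.69%, against 11.0% of all genes tested). Tbc1d22a, a regulator of Rab GTPases, rose from 61.4, 61.2 and 59.1 to 74.5, 69.3 and 71.9 CPM (log2 difference 0.25, SE 0.04, edgeR adjusted p = 0.0107). It lost its call without vehicle replicate 1 or 2. Fam19a5 (Tafa5 in RefSeq), which flanked the most regions of all, measured 38.7 ± 0.498 and 40.7 ± 2.13 CPM (SD, n = 3), and Plxna2, a semaphorin receptor, 103 ± 5.25 and 110 ± 6.87 CPM. Mkln1 measured 118 ± 3.25 and 117 ± 6.46 CPM, with a log2 difference of -0.01 (SE 0.05). Celf4, a neuronal RNA-binding protein, had 133 ± 7.88 and 148 ± 5.49 CPM, a log2 difference of 0.15 (SE 0.05) and an adjusted p of 0.0893 by edgeR.

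The 4 gene lists were made of groups that commonly border gene-poor intervals. A high share among the flanks was therefore built into their choice, and the shares are descriptions only. The neuronal adhesion and synapse organiser list had 53 autosomal entries, with Adgrl3 entered also as Lphn3, and 47 of its genes flanked a region. Over all protein-coding genes the share was 14.1%. The counts were 86 of 111 developmental transcription factors, 44 of 60 growth factor, morphogen and guidance genes and 54 of 69 ion channel and receptor genes. Among the 4069 genes that border any distal sequence, 70.9% flanked a region, and among those of the 4 lists 97.9%, 90.5%, 93.6% and, for channels and receptors, 54 of 60. Intervals beside adhesion genes were long (median 1242 kb of distal sequence, against 128 kb over all intervals) and held 6.96 regions per Mb, below the 11.9 over all distal sequence. Those beside developmental transcription factors held 12.7 per Mb, beside growth factors and morphogens 10.6, and beside channels and receptors 8.91. Their median lengths were 440, 352 and 258 kb of distal sequence. These densities were not matched for length. Over all intervals, density was 15.6 per Mb at 250 to 500 kb of distal sequence, 8.89 at 1000 to 2000 kb and 6.09 above 2000 kb. The adhesion value lay between 8.89 and 6.09. Whether any list differed from intervals of like length was not tested.

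In RNA, 0 of the 47 tested flanking adhesion genes were higher by edgeR, DESeq2 or voom (0 at an unadjusted p under 0.05) and 5 were lower (10.6%), with a median log2 difference of -0.10. Of the whole adhesion list, flanking or not, 54 genes were tested, with 0 higher and 7 lower. Most of these 54 also flank a region, so the list cannot separate flanking genes from others. Over all genes tested 5.10% were higher and 5.89% lower, with a median of 0.00. The 5 flanking genes were Pcdh10, Tenm3, Ctnnd2 (delta-catenin of synapses), Opcml and Lphn3 (Adgrl3 in RefSeq, a latrophilin that flanked 40 regions). Pcdh10, a protocadherin, fell from 62.0, 66.8 and 66.5 to 50.9, 54.3 and 54.9 CPM (log2 difference -0.29, SE 0.05, edgeR adjusted p = 0.00954). Tenm3, a teneurin of synaptic partner matching, fell from 38.0 ± 1.33 to 31.4 ± 1.59 CPM (SD, n = 3). Of 62 tested developmental transcription factors, 3 were higher (4.84%) and 7 lower (11.3%), with a median of 0.01. Sox4, Klf6, a zinc-finger factor known for axon growth, and Runx1t1 were higher; Nr2f1, Nr2f2, Nr4a2, Pou3f2, Runx2, Sox6 and Zeb2 were lower. Klf6, 1089.5 kb from the region of highest fold, rose from 81.4, 80.9 and 78.9 to 99.7, 95.9 and 90.5 CPM. Of 41 growth factor, morphogen and guidance genes, Sfrp1, a secreted Wnt modulator, was higher and Nog, a secreted BMP antagonist, lower (2.44% each). Of 50 channel and receptor genes, Kcna4, a voltage-gated potassium channel, Npy2r and the kainate receptor Grik1 were higher (6.00%) and 0 lower by edgeR, DESeq2 or voom (5 at an unadjusted p under 0.05). Of the whole channel and receptor list, 67 genes were tested, with 3 higher and 1 lower. Most of the calls in flanking list genes depended on single libraries. Without vehicle replicate 2, Sox4, Nr2f1 and Runx2 alone kept the call. Pcdh10 and Nr2f2 also kept it without vehicle replicate 1, and Pcdh10, Nr2f2, Tenm3 and Sox6 without vehicle replicate 3. Without MS275 replicate 3, Pcdh10, Nr2f2, Klf6, Nr4a2 and Sfrp1 kept it beside those 3. Without MS275 replicate 1 it was lost by Nog, Opcml, Pou3f2, Sfrp1 and Zeb2, and without MS275 replicate 2 by Npy2r. Each of these genes kept its sign in all 6 fits.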

How the data were processed

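The authors deposited 2 ATAC-seq peak lists, 1 per treatment, each combining 3 libraries, with a score, a fold enrichment ratio, and −log10 p and q values per summit; the sources used here name neither the caller and its settings nor the depth. Build mm10 and the tools FastQC 0.10.1, R 3.5.0, limma 3.38.3, STAR 2.7.0 and edgeR 3.24.3 are named, with no role, per the submitters' processing notes. The deposited RNA files hold raw read counts per gene symbol.

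Peak entries were merged within each list, and distances were taken to RefSeq gene bodies (GRCm38.p6), leaving out 363 genes with scaffold coordinates. Of 44345 gene rows, 31457 matched a RefSeq gene (1940 by a synonym). The test on counts was edgeR's (version 4.0.16, under R 4.3.3; TMM, filterByExpr, 2-sided quasi-likelihood, treatment only, adjusted p under 0.05 over 16819 genes) after a run on simulated data. The 5 rows that name no gene held 18.89% to 20.56% of reads and were left out. No 2 libraries agreed within sampling noise.

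Alternatives were DESeq2 1.42.0, limma voom 3.58.1, other filters, limits and overlaps, and leaving out each RNA library. Named genes were the 12 flanking genes of smallest p in each direction (mean log2 CPM of at least 1, provisional symbols passed over). Also named were up to 6 genes per list and those at the 10 intervals with most regions. Of the RNA genes tested, the 8 with most regions inside were named. Named regions were the 6 strongest, the 6 farthest and those at the limits, passing over chromosome 18. Regions, lists and rules were chosen with earlier results of these data known.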

Additional observations from a re-analysis of the deposited data

How the results depend on the processing

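The 10012 shared distal regions became 2336 with a −log10 q of at least 5 in both lists, 6643 beyond 100 kb and 3037 when every annotated gene counted; the other 7 settings gave 7610 to 13697. Flanking genes numbered 118 higher and 172 lower; 121 and 167 with RLE size factors, 154 and 200 with DESeq2, 112 and 167 with voom, 161 and 205 without the filter. At an adjusted p under 0.01 they were 27 and 33, and for regions over 100 kb from genes 63 and 104. Leaving out 1 library gave 19 to 171 higher and 23 to 253 lower. With the replicate block they were 144 and 194; same-numbered libraries correlated at 0.0192, 0.111 and -0.0611, and 3 of 6 libraries correlated best with their own number, so the numbers were not taken as pairs. Of 44 called genes named here, Nog (edgeR adjusted p = 0.0544) and Sfrp1 (0.0562) did not pass with the block, and none of the 44 changed sign without 1 library. Uncalled genes near 0 did, over the 6 fits without 1 library: Ajap1 ran from -0.39 to 0.29, Camk1g from -0.02 to 0.09, Cdh26 from -0.21 to 0.23, Mkln1 from -0.05 to 0.02, 2610035D17Rik from -0.01 to 0.06, A630089N07Rik from -0.28 to 0.06, Nphp4 from -0.12 to 0.05 and Pik3c3 from -0.02 to 0.07. The ATAC lists carry no replicates, and depth cannot be read from them.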
